A study of Mus musculus with 16 samples.

Results

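The genes described here are the 8 listed members of the AP-1 family of transcription factors, Fos, Fosb, Fosl1, Fosl2, Jun, Junb, Jund and Atf3, out of 22367 protein-coding genes in the mouse annotation. For each gene, all ChIP-seq islands that overlapped its gene body or the 50 kb on either side (its window) were taken from the 16 deposited island lists and described by number, length and rank. An island is a stretch of the genome in which reads from a chromatin immunoprecipitation were enriched. The lists hold a position and a score for each island and no read counts, so a level here is the length of a window covered by islands.

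AP-1 is a dimer of basic leucine zipper (bZIP) proteins. The Jun proteins pair with each other or with the Fos proteins, which cannot pair among themselves, and the dimers bind the palindrome-like site TGACTCA. Fos, Fosb, Jun, Junb and Atf3 are known as immediate early genes, switched on within minutes by serum, growth factors, cyclic AMP or stress, whereas Fosl1 and Fosl2 are known to rise later and Jund to be expressed more steadily. In preadipocytes, AP-1 is known to act with C/EBPβ and the glucocorticoid receptor at enhancers during the first hours after the hormonal stimulus.

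The cells were 3T3-L1 preadipocytes, a mouse embryonic fibroblast line that becomes adipocytes when confluent cultures receive insulin, dexamethasone and isobutylmethylxanthine. H3K27ac, a histone mark of active promoters and enhancers, was mapped in cells carrying an empty retroviral vector (control cells) and in cells carrying V5-tagged SETD5, at 0 h and 48 h of differentiation, with 2 replicates (A and B) of each of the 4 groups. SETD5, a SET-domain protein found with the NCoR-HDAC3 corepressor, was mapped through its V5 tag at 0 h and 6 h (2 replicates each) and, with an antibody to the endogenous protein, at 0 h and 6 h (1 library each). Enhancers, primed or active, carry H3K4me1, which was mapped at 0 h and 48 h (1 library each). No label says that replicates A and B were separate cultures, although the study's methods call them biological replicates, so p-values measure the spread between these libraries. In such bulk samples, fewer cells with a mark and less of it per cell cannot be told apart. The labels give the virus as SETD-V5 for replicate B of the V5 libraries and for both H3K4me1 libraries, and as a dash for replicate A of the V5 libraries. The study's legend for H3K4me1 names no virus, so which cells those libraries came from is not settled. H3K4me1 is set beside H3K27ac of either vector as a description only. By the study's account the vector is a retrovirus with a weak promoter, and a stable line with moderate expression was used unless stated otherwise. No list measures the level of the transgene.

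The lists held 31292 to 39949 islands for H3K27ac, 49926 and 50276 for H3K4me1, and 2132 and 3293 for endogenous SETD5. The V5 lists were unequal at 0 h, 16054 islands for replicate A against 6666 for B, whereas the 6 h lists held 35573 and 27220. Promoters of all 6 fibroblast markers examined (Pdgfra, Pdgfrb, Col1a1, Col1a2, Thy1, Twist2) had an H3K27ac island in all 8 libraries, and promoters of the endothelial and epithelial markers had none in any. Of the leukocyte markers, Ptprc and Emr1 had none and Csf1r had one in 3 of the 4 libraries at 0 h. Of the 7 adipocyte genes, Pparg, Cebpa and Lpl had one in all 8 libraries, and Fabp4 and Plin1 in all 4 libraries at 48 h and none at 0 h. These were longer in control cells at 48 h (15000 and 4800 bp at Fabp4, 14400 and 8200 bp at Plin1) than in SETD5 cells (400 and 1200 bp, 3200 and 3400 bp). Adipoq had one only in both control libraries at 48 h and Cd36 only in control replicate A at 48 h. By the read totals that the study states for its libraries, each SETD5 library for H3K27ac was sequenced more deeply than every control library, so vector and depth cannot be told apart. The Setd5 promoter had an H3K27ac island in all 8.

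In control cells, 4 of the 8 windows changed in H3K27ac between 0 h and 48 h, where 37.5% of all windows did. Fosl1, Fosb and Fosl2 gained covered length and Atf3 lost it, while Fos and the 3 Jun genes did not pass the test. The largest gain in length was at Fosl1, where an island of about 20 kb lay over a promoter that had carried almost no H3K27ac at 0 h. Of its length, 6400 bp downstream of the promoter was already covered at 0 h. In SETD5 cells Fosl1 gained and Atf3 lost as well, where 26.7% of all windows changed. None of the 8 windows passed the test between the vectors at 0 h (2.32% of all) or at 48 h (14.5% of all).

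The sequences shown first are those of the promoters at which an island appeared or disappeared. They are the 300 bases before the annotated start of Fosl1 (chr19:5447403-5447702, + strand, mm9) and of Atf3 (chr1:193007220-193007519, - strand, mm9), with a match to the C/EBP letters TTGCNNAA in capitals.
Fosl1: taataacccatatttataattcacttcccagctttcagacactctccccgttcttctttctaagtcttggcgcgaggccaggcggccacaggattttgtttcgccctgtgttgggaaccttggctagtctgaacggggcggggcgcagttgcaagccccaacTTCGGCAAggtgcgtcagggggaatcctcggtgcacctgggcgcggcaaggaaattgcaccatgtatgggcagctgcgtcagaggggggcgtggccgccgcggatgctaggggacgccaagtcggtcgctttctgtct
Atf3: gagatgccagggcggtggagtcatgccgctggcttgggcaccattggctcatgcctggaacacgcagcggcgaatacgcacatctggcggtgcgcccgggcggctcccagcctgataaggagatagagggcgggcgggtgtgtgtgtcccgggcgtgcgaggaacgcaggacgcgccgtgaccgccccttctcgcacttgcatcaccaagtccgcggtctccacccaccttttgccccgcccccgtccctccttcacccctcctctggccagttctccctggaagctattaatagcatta
The stretch of Fosl1 held 1 match to TTGCNNAA on the reverse strand, from -138 to -131 counted from the start, and that of Atf3 held none. Of the other members only Jund held a match, from -152 to -145, and its promoter island did not change by the test over time in either vector. Of all 22361 coding-gene stretches of this length and position, 11.2% held such a match, counting both strands. None of the 8 members had TGACTCA (4.5% of all) or the cyclic AMP response element TGACGTCA (2% of all) in this stretch. A match describes the letters only.

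Fos and Junb had the exact letters of the classic serum response element, searched on both strands, inside their H3K27ac promoter islands. This element binds the serum response factor and is the classic entry point of growth factor signals at Fos. The stretches around it are printed on the strand of the gene, with the element in capitals.
Fos chr12:86814521-86814550: cacaggatgtCCATATTAGGacatctgcgt
Junb chr8:87504048-87504077: cttcctgtgcCCTAATATGGgtgctgggga
On the strand printed, the element began at -309 from the Fos start and at -1450 from the Junb start, where it reads in reverse complement. It was present in 0.112% of 22359 coding genes in the same 400 bases before the start, and in 0.269% of 22345 in the same 2000 bases. These stretches were set separately for each gene and take in the element found, so the shares are a description only. The H3K27ac promoter islands of the other members held no match.

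Fos encodes c-Fos, the founding partner of Jun in AP-1 (12:86814840-86818223, mm9, + strand). Its window covered 9.0 and 7.2 kb of H3K27ac at 0 h and 11 and 9.2 kb at 48 h in control cells (replicates A and B). In SETD5 cells it covered 9.6 and 13.2 kb at 0 h and 12.6 and 11.2 kb at 48 h. The groups of control cells did not overlap, whereas the 48 h values of SETD5 cells lay between those at 0 h. How many of all windows had groups without overlap in covered length was not counted, so this is a description only. The log2 fold change was 0.29 ± 0.19 (SE) in control cells and 0.07 ± 0.19 in SETD5 cells, and neither passed limma's test (adjusted p = 0.289 and 0.836). With 100 kb on each side the control value was 0.82 ± 0.22 and passed (adjusted p = 0.017). No other coding gene lies in this window, and the islands recurred at fixed places.

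All 8 libraries had an island over the Fos promoter, of 1.8 to 3.2 kb, and intergenic islands about 18 kb upstream, 13 kb downstream and 24 kb downstream. What moved at Fos was the rank of the promoter island. The share of islands in the same list with a higher score was 45.9% and 64.0% at 0 h and 25.3% and 26.3% at 48 h in control cells. In SETD5 cells it went from 39.8% and 44.7% to 13.4% and 12.4% between the same times. Neither vector showed an overlap of the 2 times.

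Such a shift is common in these lists. Of 9531 genes with a promoter island in all 8 libraries, 43% ranked higher at 48 h than at 0 h without overlap in control cells and 27.7% ranked lower. The shares in SETD5 cells were 43.9% and 24.5%. Such an island was found at 5 of the 8 members, Fos, Fosl2, Jun, Junb and Jund (42.6% of all coding genes had one). Of these 5, Fos, Jun and Junb ranked higher at 48 h in control cells and Fosl2 ranked lower. In SETD5 cells 4 ranked higher and Jund ranked lower.

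Fosb encodes FosB, which shares the immediate early induction of c-Fos (7:19888070-19895394, mm9, - strand). Its window covered 9.394 kb in both control libraries at 0 h and 19.594 and 18.594 kb at 48 h. In SETD5 cells the values were 14.194 and 13.394 kb at 0 h and 15.794 and 16.794 kb at 48 h. Control cells held both the lowest and the highest levels, and SETD5 cells lay between them at both times. The share of all windows with this order was not counted, so it is a description only. The log2 fold change over time was 0.95 ± 0.11 in control cells (adjusted p = 0.000683) and 0.23 ± 0.11 in SETD5 cells (adjusted p = 0.181).

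The difference between these 2 changes at Fosb was -0.73 ± 0.15 on the log2 scale. It narrowly missed the threshold (limma adjusted p = 0.0531), as did the excess of SETD5 over control cells at 0 h (0.51 ± 0.11, adjusted p = 0.0668). The interaction passed under 4 of the alternatives, with adjusted p from 0.0244 to 0.0497. It did not pass with the replicate block, equal numbers of islands, islands above the median score or 20 kb on each side. Nor did it with 5000 bp added, full island length, the number of islands or any single library left out. The gain that both control libraries shared did not come from the Fosb promoter. An island there was listed at 48 h only in control replicate A (3.0 kb) and SETD5 replicate B (1.2 kb), and in none of the 4 libraries at 0 h.

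Most of the 5.2 kb that both control libraries gained at Fosb lay downstream, in and around Vasp, a gene for an actin regulator. In both control libraries, a segment of 2.6 kb centred 51.3 kb downstream and one of 1.8 kb centred 43.7 kb downstream were covered at 48 h and in neither library at 0 h. The second reached into a Vasp island that grew from 5.4 and 4.6 kb to 7.6 and 7.8 kb. With 20 kb on each side in place of 50 kb, the Fosb change was 0.55 and did not pass (adjusted p = 0.191).

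Fosl1 encodes FRA1, a Fos protein without the activation domain of c-Fos (19:5447703-5455945, mm9, + strand). Its window covered 34.6 and 32 kb at 0 h and 60.8 and 64.6 kb at 48 h in control cells. In SETD5 cells it covered 32.6 and 33.0 kb at 0 h and 52.4 and 58.6 kb at 48 h. Every 48 h library stood above every 0 h library, and the control libraries at 48 h stood above those of SETD5 cells. How many of all windows were ordered so was not counted. The log2 fold change over time was 0.89 ± 0.10 in control cells (adjusted p = 0.000542) and 0.74 ± 0.10 in SETD5 cells (adjusted p = 0.00191). The difference between vectors at 48 h was -0.17 ± 0.10 and did not pass (adjusted p = 0.279).

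**Figure D1:**
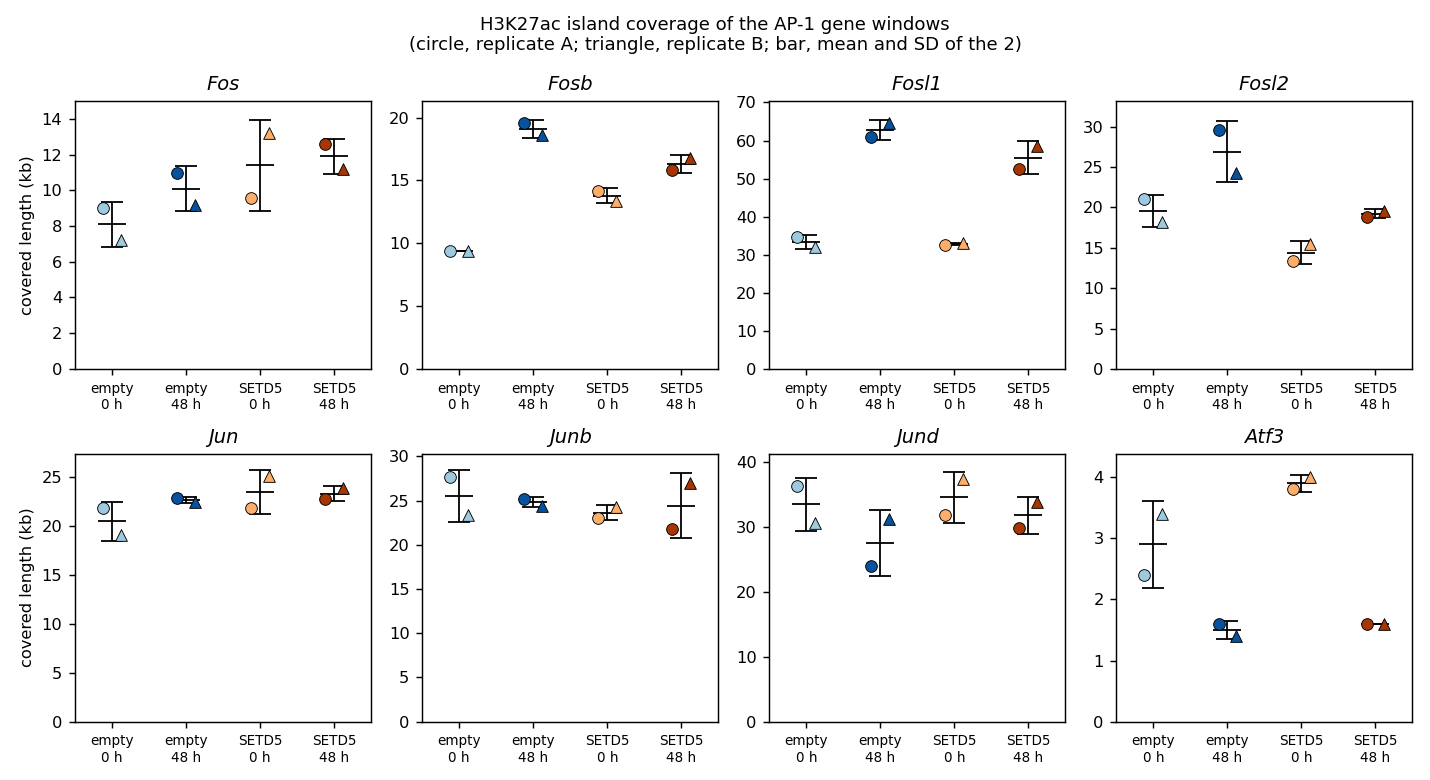
H3K27ac covered length in kb (y axis, from 0) of each AP-1 gene window in the 4 groups (x axis). Circles are replicate A, triangles replicate B, and bars the mean and SD of the 2. Fosl1 rises from 32-34.6 kb to 52.4-64.6 kb, and Atf3 falls from 2.4-4.0 kb to 1.4-1.6 kb.

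The Fosl1 promoter island was the clearest change among the 8 genes. At 0 h no island touched the promoter in 3 of the 4 libraries, and control replicate B had one of 1.0 kb that 92.7% of its list outscored. At 48 h the island measured 20 and 20.8 kb in control cells and 9.0 and 18.6 kb in SETD5 cells. Only 0.278% and 0.226% of islands in the control lists scored higher, against 2.95% and 0.766% in the SETD5 lists. The log2 fold change of promoter island length was 3.92 ± 0.42 in control cells (adjusted p = 0.00295) and 3.81 ± 0.42 in SETD5 cells (adjusted p = 0.00576). In control cells the 48 h length took in 6400 bp downstream that was already covered at 0 h. The shorter domain in SETD5 replicate A was split by a gap from a neighbouring island of 8.6 kb further downstream. The vectors did not differ by the test at 48 h (-0.61 ± 0.42, adjusted p = 0.573).

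The other 7 promoters did not pass in either vector. Among all 11616 promoters tested, 10.5% passed over time in control cells, 7.49% as longer and 3.01% as shorter. In SETD5 cells 5.75% passed, 3.7% as longer and 2.05% as shorter. Between the vectors no member promoter passed limma's test at 0 h (1.12% of all), at 48 h (3.43%) or for the interaction (1.39%), and none had an unadjusted p under 0.05 there (7.06%, 14.7% and 11.4% of all).

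**Figure D2:**
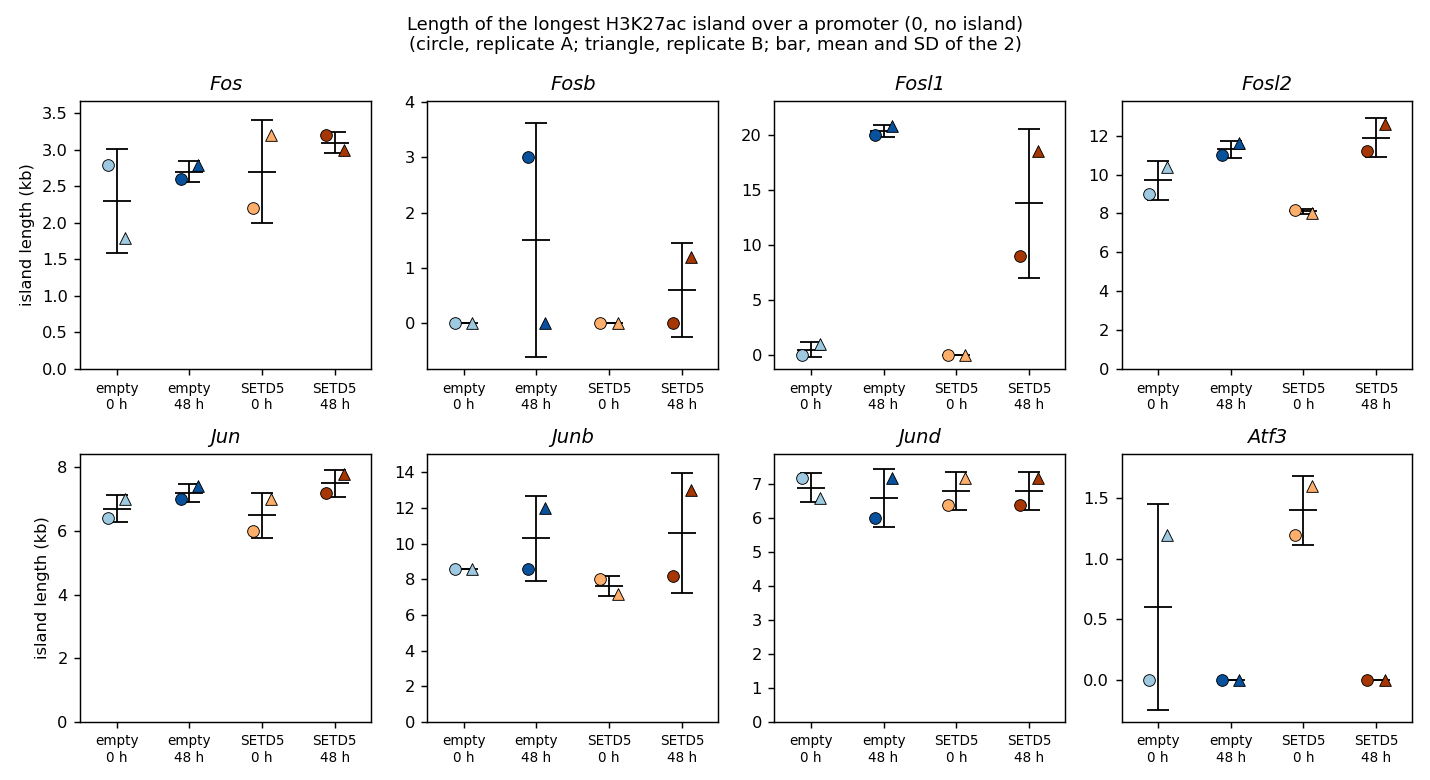
Length in kb of the longest H3K27ac island over a promoter of each AP-1 gene (y axis), in the 4 groups (x axis), with 0 where no island touched it. Circles are replicate A, triangles replicate B, and bars the mean and SD. Fosl1 goes from 0-1.0 kb to 9.0-20.8 kb, whereas Fosl2, Jun, Junb, Jund and Fos have an island in every library.

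Fosl1 sits in a gene-dense stretch with 9 other coding-gene promoters in its window. In 3 of the 4 libraries at 48 h the domain also ran over the promoters of Ccdc85b and Fibp. An island of 5.6 to 7.4 kb already lay over those promoters and the end of Fosl1 in all 4 libraries at 0 h. In control cells the new parts shared by both replicates ran from 5.5 to 0.3 kb upstream of the start (5.2 kb) and across most of the gene body (6.6 kb). Of these, 65.4% and 100% were under a V5 island of both 6 h libraries, and 46.2% and 57.6% under H3K4me1 at 0 h. Both marks were dense throughout. V5 islands shared by the 6 h libraries covered 72.6 kb of the 108243 bp window, and H3K4me1 at 0 h covered 42.9% of it.

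The gained stretch in the gene body held 4 copies of the AP-1 site TGACTCA, counting both strands, all in introns, and the upstream stretch held 1. They are shown because these are the letters that AP-1 dimers bind, and no AP-1 binding was measured here. Each is printed with 20 bases on either side, on the strand of the gene, with the site in capitals.
Fosl1 chr19:5442747-5442793: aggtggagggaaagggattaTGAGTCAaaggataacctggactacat
Fosl1 chr19:5448835-5448881: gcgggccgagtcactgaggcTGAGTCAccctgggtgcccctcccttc
Fosl1 chr19:5449846-5449892: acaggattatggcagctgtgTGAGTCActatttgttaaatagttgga
Fosl1 chr19:5450466-5450512: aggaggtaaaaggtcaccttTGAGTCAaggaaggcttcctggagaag
Fosl1 chr19:5451915-5451961: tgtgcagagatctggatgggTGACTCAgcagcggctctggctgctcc
In the same 6.6 kb stretch relative to the start, 66.7% of 22330 coding genes had at least 1 copy and 3.06% had at least 4. Across whole lists, H3K27ac islands held 0.216 to 0.235 copies per kb, and the 48 h Fosl1 promoter islands 0.323 to 0.556 per kb. The H3K27ac promoter islands of Jund held 0.278 to 0.333 per kb and those of Junb 0.125 to 0.5. The short islands of Atf3 held 1 copy each. At Fosl2 they held 0.0794 to 0.125 per kb, and those of Fos, Fosb and Jun held none.

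Fosl2 encodes FRA2 (5:32438845-32460204, mm9, + strand). Its window covered 21.0 and 18.2 kb at 0 h and 29.6 and 24.2 kb at 48 h in control cells. In SETD5 cells it covered 13.4 and 15.4 kb at 0 h and 18.8 and 19.6 kb at 48 h. The order of the groups was the same at both times, with SETD5 cells below control cells. The share of all windows with that order was not counted. The change over time was 0.43 ± 0.14 in control cells (adjusted p = 0.0468) and 0.39 ± 0.14 in SETD5 cells (adjusted p = 0.081). The call in control cells was lost when any library but control 48 h replicate B was left out (adjusted p = 0.0595 to 0.221), and with 100 kb on each side the value was -0.06. The change in SETD5 cells passed with equal numbers of islands (adjusted p = 0.034), scaled coverage (0.0174) or 20 kb on each side (0.0323). With islands above the median score both changes rose to 0.81 (adjusted p = 0.0022 and 0.00308). Between vectors the values were -0.42 ± 0.14 at 0 h (adjusted p = 0.204) and -0.46 ± 0.14 at 48 h (adjusted p = 0.0735). Both passed once coverage was scaled to the total of each list (adjusted p = 0.0392 and 0.015).

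The Fosl2 promoter island was among the strongest of every H3K27ac list. It measured 8.0 to 12.6 kb, and 0.474% to 0.882% of islands scored higher. Inside the gene, 1.0 kb centred 6.3 kb downstream of the start was gained by 48 h in both control libraries and 2.8 kb centred 5.8 kb downstream in both SETD5 libraries. Upstream, a segment of 1.2 kb centred 12.4 kb upstream was covered in both control libraries at 48 h, in neither at 0 h, and in neither SETD5 library at 48 h. It was covered by H3K4me1 at 0 h over its whole length and by a V5 island of 1.4 kb at 6 h in replicate A only. Its sequence held 3 copies of the AP-1 site, printed in the same way.
Fosl2 chr5:32426115-32426161: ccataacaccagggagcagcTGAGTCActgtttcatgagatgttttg
Fosl2 chr5:32426140-32426186: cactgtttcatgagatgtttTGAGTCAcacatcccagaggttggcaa
Fosl2 chr5:32426869-32426915: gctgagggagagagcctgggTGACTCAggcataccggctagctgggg
In the same 1.2 kb stretch relative to the start, 18.5% of 22331 coding genes had at least 1 copy and 0.175% had at least 3. Of the 11 segments gained in control cells at Fosl1 and Fosl2, this one had the lowest share of genes with as many copies, and 6 held none. The segment was picked for its H3K27ac, and its scores were low, with 63.1% and 89.3% of islands in the control lists at 48 h scoring higher.

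Jun encodes c-Jun, the main DNA-binding partner of the Fos proteins (4:94715725-94718913, mm9, - strand). Its window covered 21.9 and 19.1 kb at 0 h and 22.9 and 22.5 kb at 48 h in control cells, and 21.9 and 25.1 kb, then 22.8 and 23.9 kb, in SETD5 cells. These values overlapped in SETD5 cells and differed little in control cells (0.14 ± 0.12, adjusted p = 0.381, and -0.01 ± 0.12, adjusted p = 0.988). The number of islands went from 4 and 5 to 3 and 3 in control cells and from 7 and 7 to 4 and 4 in SETD5 cells. Fitted in place of length, the number fell in both (-0.45 ± 0.09, adjusted p = 0.0314, and -0.68 ± 0.09, adjusted p = 0.0107). The promoter island measured 6.0 to 7.8 kb in all 8 libraries, and 1.1% to 3.3% of islands scored higher. No other coding gene lies in this window. An intergenic segment of 1.2 kb centred 21.3 kb upstream was covered at 0 h and not at 48 h in control cells, and one of 1.4 kb at the same place in SETD5 cells. A segment of 1.2 kb centred 13.9 kb downstream was covered in both SETD5 libraries at both times and in neither control library at either time.

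Junb encodes JunB, which often opposes c-Jun (8:87500811-87502617, mm9, - strand, 8 other promoters in the window). Its window covered 27.6 and 23.4 kb at 0 h and 25.2 and 24.4 kb at 48 h in control cells, and 23.0 and 24.2 kb, then 21.8 and 27 kb, in SETD5 cells. The groups overlapped in both vectors (-0.03 ± 0.13, adjusted p = 0.88, and 0.04 ± 0.13, adjusted p = 0.873). The promoter island rose in rank nonetheless. The share of islands above it went from 2.73% and 2.77% to 0.888% and 0.694% in control cells, and from 4.09% and 3.93% to 0.553% and 0.502% in SETD5 cells.

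Jund encodes JunD, the most steadily expressed Jun protein (8:73221638-73224515, mm9, + strand, 4 other promoters). Its window covered 36.4 and 30.6 kb at 0 h and 24 and 31.2 kb at 48 h in control cells, and 31.8 and 37.4 kb, then 29.8 and 33.8 kb, in SETD5 cells. The time points overlapped in both vectors (-0.28 ± 0.16, adjusted p = 0.23, and -0.12 ± 0.16, adjusted p = 0.659). The promoter island measured 6.0 to 7.2 kb in every library, and 1.14% to 3.3% of islands scored higher.

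Atf3 encodes a stress-induced bZIP repressor that can pair with Jun proteins (1:192994175-193007219, mm9, - strand). Its window was the least covered of the 8, at 2.4 and 3.4 kb at 0 h and 1.6 and 1.4 kb at 48 h in control cells. In SETD5 cells it covered 3.8 and 4.0 kb at 0 h and 1.6 and 1.6 kb at 48 h. All 4 libraries at 0 h stood above all 4 at 48 h, and the share of all windows that did so was not counted. The change was -0.63 ± 0.18 in control cells (adjusted p = 0.0326) and -0.91 ± 0.18 in SETD5 cells (adjusted p = 0.0109).

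The Atf3 change lay at 2 places. A promoter island of 1.2 to 1.6 kb was listed at 0 h in control replicate B and both SETD5 libraries and in no library at 48 h. It was weak, with 78.7% to 89.8% of islands scoring higher. The second island, intergenic and about 41 kb upstream, was present in all 8 libraries and shortened from 2.2-2.6 kb to 1.4-1.6 kb. The share of islands scoring above it went from 19.9% and 20.6% to 35.7% and 39.3% in control cells, and from 12.9% and 15.1% to 27% and 25.2% in SETD5 cells.

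The Atf3 call rested on single libraries. In control cells it was lost without control 48 h replicate A (adjusted p = 0.0696), control 48 h replicate B (0.103), control 0 h replicate B (0.123), SETD5 48 h replicate A (0.0539) or SETD5 48 h replicate B (0.0536). In SETD5 cells it was lost without SETD5 0 h replicate B (adjusted p = 0.0568), SETD5 48 h replicate A (0.0571) or SETD5 48 h replicate B (0.0581). The calls at Fosl1 in both vectors and at Fosb in control cells held whichever library was left out.

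**Figure D3:**
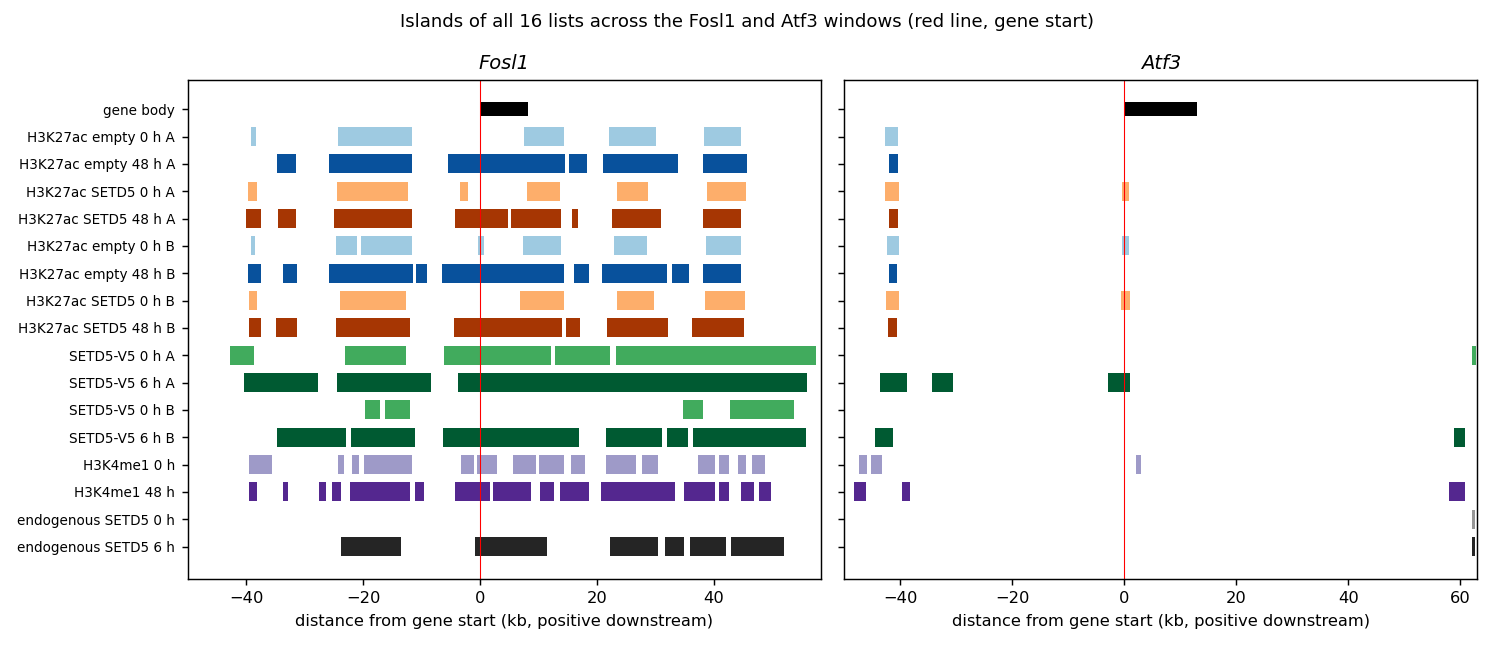
Islands of the 16 lists (rows) across the Fosl1 and Atf3 windows, by distance in kb from the gene start (x axis, positive downstream). Bars are islands, the black bar is the gene body and the red line the start. At Fosl1 the 48 h H3K27ac domain bridges the start, and at Atf3 the promoter islands of 3 libraries at 0 h are missing at 48 h.

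Ordered by the share of the window covered in control cells at 0 h, the 8 genes stood as Jund (32.5% ± 3.99, SD, n = 2), Fosl1 (30.8% ± 1.7), Junb (25.0% ± 2.92), Jun (19.9% ± 1.92), Fosl2 (16.2% ± 1.63), Fosb (8.75% ± 0), Fos (7.83% ± 1.23) and Atf3 (2.57% ± 0.626). Jund and Fosl1 overlapped in range, and the other neighbours in this order did not. At 48 h Fosl1 led with 57.9% ± 2.48, clear of Jund (26.8% ± 4.95), Junb (24.4% ± 0.556), Fosl2 (22.2% ± 3.15) and Jun (22% ± 0.274), of which neighbours overlapped. Fosb (17.8% ± 0.659), Fos (9.77% ± 1.23) and Atf3 (1.33% ± 0.125) followed in the same order as before. In SETD5 cells at 48 h Fosl1 also led (51.3% ± 4.05) and Atf3 was last (1.42% in both libraries).

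The counts of changed windows were read against those of all genes. In control cells 3 of the 8 windows passed as higher and 1 as lower, where 24.1% of 17869 windows passed as higher and 13.4% as lower (37.5% in all). In SETD5 cells 1 passed as higher and 1 as lower, where 14.9% and 11.8% did (26.7% in all). Between the vectors none of the 8 passed limma's test at 0 h (2.32% of all) or at 48 h (14.5% of all), and none for the interaction (3.68% of all). At an unadjusted p under 0.05, 2 of the 8 differed at 0 h (Fosb and Fosl2), 1 at 48 h (Fosl2) and 1 for the interaction (Fosb), against 15.6%, 29.5% and 20.2% of all windows. The shares over all windows moved with single libraries. Leaving out 1 library gave 0.129% (without control 0 h replicate B) to 1.73% at 0 h, 3.08% (without SETD5 48 h replicate A) to 13.3% at 48 h, and 0 to 1.71% for the interaction, which had 0 calls without any 1 of the SETD5 libraries. The median change of all windows was 0.13 on the log2 scale in control cells and 0 in SETD5 cells.

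**Figure D4:**
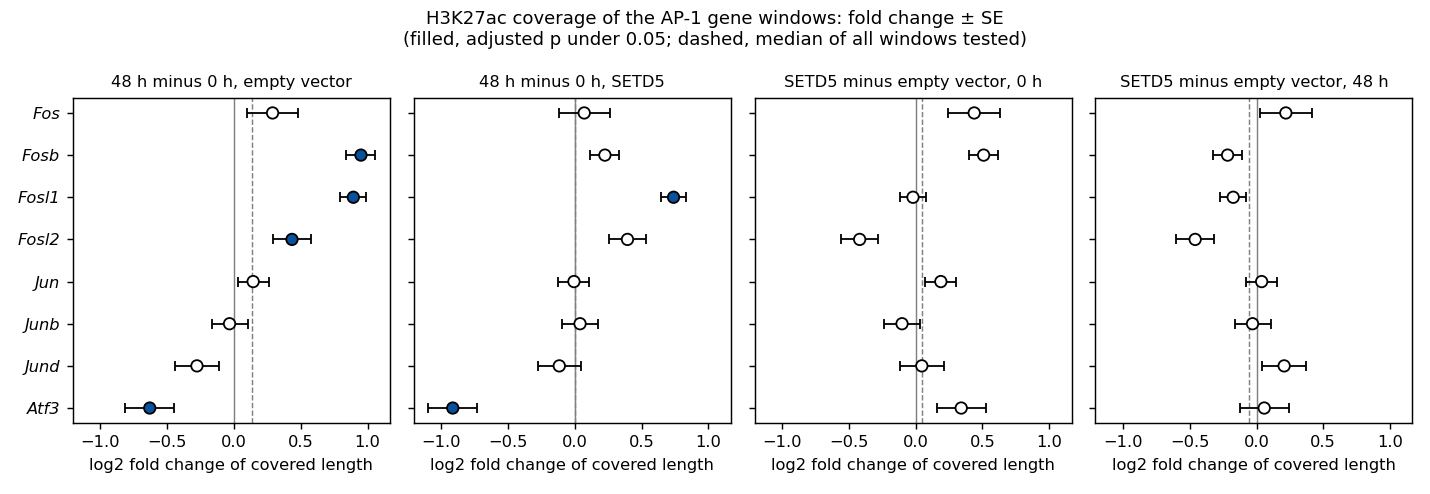
Log2 fold change of H3K27ac covered length (x axis) with its SE for each AP-1 gene (y axis) in 4 contrasts. Filled points have an adjusted p under 0.05 and the dashed line is the median of all windows. Filled points appear only in the 2 contrasts of time, at Fosb, Fosl1, Fosl2 and Atf3 in control cells and at Fosl1 and Atf3 in SETD5 cells.

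Ranks of promoter islands between the vectors came from lists of unequal length, 31292 to 35460 islands in control cells and 36604 to 39949 in SETD5 cells, and are given as a description for the 5 genes with one in all 8 libraries. At 0 h Fos, Jun and Jund ranked higher in SETD5 cells and Fosl2 and Junb lower, without overlap. At 48 h all 5 ranked higher in SETD5 cells. Of all 9531 such promoters, 58.4% ranked higher at 0 h and 5.69% lower, and 58.8% ranked higher at 48 h and 14% lower.

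SETD5 itself was found at most of these promoters, and more widely at 6 h. V5 islands touched the promoters of 6 of the 8 genes in replicate A at 0 h, Fos, Fosl1, Fosl2, Jun, Junb and Jund, and of only Jun and Jund in replicate B. At 6 h they touched all 8 in replicate A and the same 6 genes in replicate B. Both libraries therefore shared 2 of 8 promoters at 0 h (5.16% of all genes) and 6 of 8 at 6 h (21.8% of all genes). Fosb and Atf3 promoters were reached only in replicate A at 6 h, by islands of 1.8 and 4.0 kb that ranked low, with 96.8% and 76.8% of islands scoring higher.

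The covered length at 6 h was greatest at Fosl1. Its window covered 76.2 and 21.4 kb at 0 h and 88.4 and 78.4 kb at 6 h. In replicate A at 6 h, a single island of 59.6 kb ran from the Fosl1 promoter over those of Ccdc85b, Fibp, Ctsw, Efemp2, Mus81 and Cfl1, and in replicate B the promoter island measured 23.2 kb. Jund followed with 39.2 and 11 kb, then 49.6 and 34.8 kb. Fosl2 went from 27.2 and 6.0 kb to 41.8 and 33.4 kb, and Junb from 24.8 and 2.6 kb to 33.8 and 32 kb. Jun went from 15.0 and 8.0 kb to 30.3 and 29.1 kb. At Jund the 2 times overlapped, and at each of these 5 genes replicate B held less than replicate A at 0 h.

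The lower end was Fos, Fosb and Atf3. Fos covered 12 and 0 kb at 0 h and 15.6 and 9.8 kb at 6 h. Fosb covered 15.8 and 0 kb, then 14.8 and 0 kb, so it had V5 islands in replicate A alone. Atf3 covered 0.8 and 0 kb, then 12.6 and 5.2 kb.

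None of the 8 windows passed limma's test for V5 at 6 h against 0 h, where 19.2% of 13825 windows passed as higher (19.3% in all). The largest change was at Atf3 (2.77 ± 0.67 on the log2 scale, adjusted p = 0.0773), the only member at an unadjusted p under 0.05, against 32.1% of all windows. The values at the other genes ran from -0.04 ± 2.16 at Fosb to 1.89 ± 1.52 at Fos, and the median of all windows was 1.91. Without replicate A at 0 h, 7 members passed, all but Fosb, when 72.0% of all windows did. Without any 1 of the other 3 libraries none of the members and none of all windows did. The count of calls thus rested on that library, and the part of the smaller 0 h list of replicate B in each value was not tested. By the totals the study states, replicate B was the more deeply sequenced of the 2 at 0 h, and the part of depth was not tested.

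Endogenous SETD5 gave far fewer islands. At 0 h it touched none of the 8 promoters (2.05% of all genes), and at 6 h it touched 5, Fosl1, Fosl2, Jun, Junb and Jund (6.51% of all genes). Fosl1 was listed at 0 at 0 h and covered 49.2 kb at 6 h, with a promoter island of 12.4 kb. Fosl2 went from 6.4 to 36.6 kb, with a promoter island of 31.2 kb, Junb from 3.6 to 17.6 kb and Jund from 2.0 to 9.0 kb. Jun was listed at 0 at 0 h and covered 4.0 kb at 6 h. Fos and Fosb were listed at 0 at both times, and Atf3 covered the same 0.6 kb 62.3 kb downstream at both times. A V5 island of 0.8 kb lay over that spot in replicate A at 0 h.

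Beyond 1.5-fold (with 1 kb added to each length), 5 members were higher at 6 h, where 69.3% of 5244 windows were, and the median of these windows was 4.8-fold. The 5244 windows are those with an island at either time, which leaves out Fos and Fosb. There was 1 library per time and no test. The 5 promoters with endogenous SETD5 at 6 h were among the 6 that both V5 libraries shared, and the other one was Fos.

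**Figure D5:**
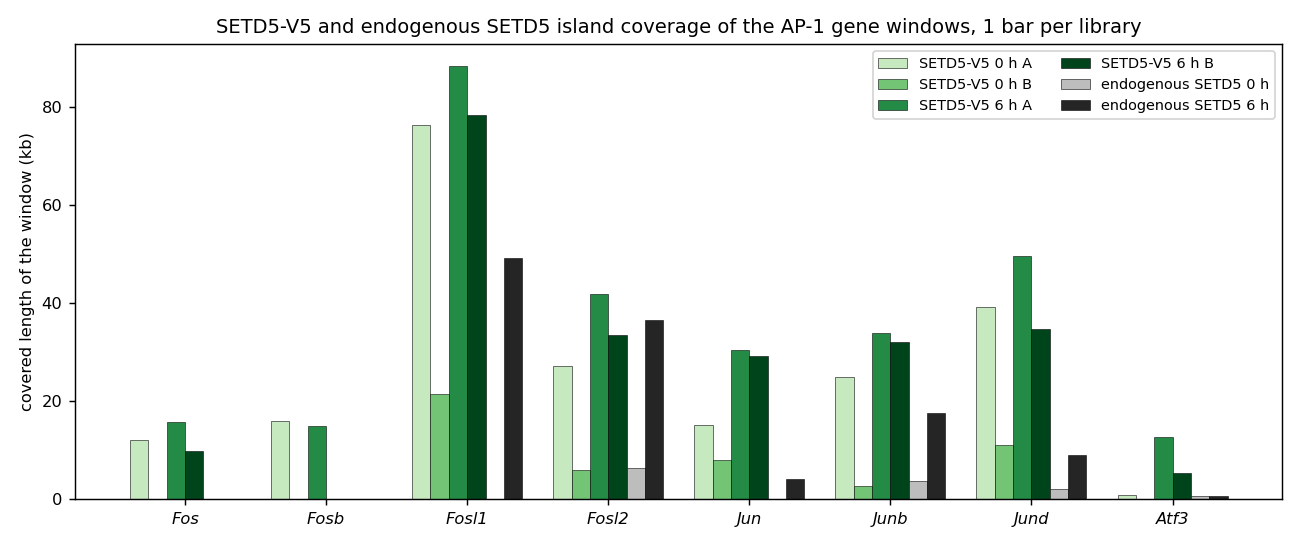
Covered length in kb (y axis, from 0) of each AP-1 gene window (x axis) by SETD5-V5 islands in 4 libraries (green) and endogenous SETD5 islands in 2 (grey and black), 1 bar per library. Fosl1 is the most covered in all 4 V5 libraries and in endogenous SETD5 at 6 h, and Fosb and Fos have no endogenous SETD5 island.

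H3K4me1 islands lay in every window at both times. The covered length went from 8.0 to 10.8 kb at Fos, 9.4 to 8.4 kb at Fosb, 46.4 to 60.4 kb at Fosl1 and 45 to 56.0 kb at Fosl2. It went from 12.4 to 18.7 kb at Jun, 24 to 27.2 kb at Junb, 37.2 to 51.1 kb at Jund and 4.2 to 6.4 kb at Atf3. With 1 library per time, no member changed 1.5-fold (folds from 0.904 to 1.47), where 29.5% of 16649 windows were higher and 16.2% lower, and the median of all was 1.17.

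A promoter island of H3K4me1 was listed at Fosl1 (3.4 kb) and Junb (7.0 kb) at 0 h and at Fosl1 (6.0 kb), Junb (10.2 kb) and Jund (3.0 kb) at 48 h. The shares over all coding genes were 21.9% and 24.5%. At Fosl1 the H3K4me1 island was thus listed at 0 h, when 3 of the 4 H3K27ac libraries had no promoter island. By the labels, H3K4me1 was mapped in cells with the SETD-V5 virus, so the marks may come from different cells.

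Related genes were counted in the same fit. Shares over all windows were 24.1% higher and 13.4% lower in control cells, 14.9% and 11.8% in SETD5 cells, and 19.2% higher for V5. Of 13 bZIP partners, 2 windows passed as higher and 2 as lower in control cells over time, among them Mafg, a small Maf protein (0.73 ± 0.10, adjusted p = 0.00124), Maff (0.39 ± 0.12, adjusted p = 0.0357) and Batf, a partner of Jun (-2.28 ± 0.43, adjusted p = 0.00559). Their median change was -0.04, against 0.13 for all windows. In SETD5 cells 2 passed as higher, Jdp2, a repressor that pairs with Jun (1.06 ± 0.16, adjusted p = 0.0036), and Mafg (0.61 ± 0.10, adjusted p = 0.00413). At 48 h Jdp2 (1.36 ± 0.16, adjusted p = 0.00415) and Batf (2.32 ± 0.43, adjusted p = 0.0157) were higher in SETD5 than in control cells, where 6.77% of all windows passed as higher and 7.71% as lower. Jdp2 and Batf lie beyond the window of Fos on the same chromosome, and their own windows overlap each other.

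Of 14 kinases and factors upstream of AP-1, 5 windows passed as higher and 2 as lower in control cells (median 0.37, 37.5% of all windows called) and 3 and 2 in SETD5 cells (median 0.30, 26.7% of all called). The kinase gene Map2k4, which acts on the Jun kinases, rose most in both, by 1.75 ± 0.14 (adjusted p = 0.000213) and 2.29 ± 0.14 (adjusted p = 0.000214). Mapk3, which encodes ERK1, rose in control cells (0.88 ± 0.13, adjusted p = 0.00192) and was lower in SETD5 than in control cells at 48 h (-0.70 ± 0.13, adjusted p = 0.0158). Elk4, a partner of the serum response factor, rose in both (1.04 ± 0.16, adjusted p = 0.00215, and 0.65 ± 0.16, adjusted p = 0.0206), and Map2k1, a kinase of the ERK cascade, fell in SETD5 cells (-0.66 ± 0.14, adjusted p = 0.013). At 48 h Creb1, which binds the cyclic AMP response element, was higher in SETD5 than in control cells (0.57 ± 0.13, adjusted p = 0.0272), as was Map2k4 (0.61 ± 0.14, adjusted p = 0.0339). For V5, 4 of 13 tested passed as higher at 6 h (19.2% of all; median 2.16, against 1.91 for all windows), among them Map2k4 (6.13 ± 0.62, adjusted p = 0.0223) and Elk4 (3.07 ± 0.49, adjusted p = 0.0301).

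Of 14 genes known as AP-1 targets, 2 windows passed as higher and 5 as lower in control cells (median -0.20, 24.1% and 13.4% of all windows) and 0 and 2 in SETD5 cells (median -0.11, 14.9% and 11.8% of all). The protease genes Plau (-1.09 ± 0.16, adjusted p = 0.00213) and Mmp3 (-1.83 ± 0.28, adjusted p = 0.00245) and the inhibitor gene Timp1 (-1.18 ± 0.23, adjusted p = 0.00622) fell in control cells. Timp1 was higher in SETD5 than in control cells at 48 h (1.32 ± 0.23, adjusted p = 0.0128), and Spp1, which encodes osteopontin (-0.82 ± 0.13, adjusted p = 0.0113), was lower. In all, 3 targets were higher and 4 lower there (6.77% and 7.71% of all windows). In SETD5 cells the chemokine gene Ccl2 (-1.09 ± 0.18, adjusted p = 0.00528) and Hmox1, a haem-degrading enzyme (-0.59 ± 0.14, adjusted p = 0.0224), fell. For V5, 3 of 13 targets passed as higher at 6 h (median 2.80, 19.2% of all windows), Il6 (3.05 ± 0.34, adjusted p = 0.0223), Mmp13 (2.84 ± 0.32, adjusted p = 0.0223) and Plaur (3.02 ± 0.39, adjusted p = 0.0223).

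Of 9 other immediate early genes, 3 windows passed as higher and 1 as lower in control cells (median 0.33, 37.5% of all windows called) and 2 and 1 in SETD5 cells (median 0.19, 26.7% of all called). Dusp1, a phosphatase that turns off the kinases, rose in both (0.73 ± 0.11, adjusted p = 0.00253, and 0.56 ± 0.11, adjusted p = 0.0113), as did the nuclear receptor gene Nr4a1 (0.89 ± 0.18, adjusted p = 0.00849, and 0.75 ± 0.18, adjusted p = 0.0229). Egr3 fell in control cells (-0.90 ± 0.19, adjusted p = 0.00999) and Ier5 in SETD5 cells (-0.94 ± 0.16, adjusted p = 0.00523). At 48 h Myc (-1.15 ± 0.31, adjusted p = 0.0498) and Ier5 (-0.87 ± 0.16, adjusted p = 0.0151) were lower in SETD5 than in control cells. For V5 none of these 9 and none of 12 bZIP partners tested passed (medians 1.30 and 1.51). None of the 4 lists had a window that passed between vectors at 0 h or for the interaction.

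The windows most like those of the AP-1 genes over the 8 H3K27ac libraries were found by the root mean square difference in log2 covered length. For Fosl1 they were those of 1700029G01Rik (0.0995) and Fgfr1 (0.11), and for Fos those of Paip1 (0.096) and 1700001L05Rik (0.122). For Fosb they were BC017158 (0.123) and Fam136b-ps (0.132), and for Fosl2 Sp6 (0.132) and Ushbp1 (0.134). For Jun they were 4930588N13Rik (0.041) and Mpv17l2 (0.0667), for Junb A730013G03Rik (0.0741) and Gna11 (0.0752), for Jund Car5a (0.0959) and Tmcc2 (0.138), and for Atf3 Aph1b and Gm10647 (0.166 each). The measure covers the level as well as the pattern over libraries.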

How the data were processed

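ChIP-seq of H3K27ac (8 libraries), SETD5-V5 (4), H3K4me1 (2) and endogenous SETD5 (2) was analysed from island lists. The authors aligned reads with Bowtie2 and called islands in each library separately with SICER or SICER2. The numbers of islands that the study gives per caller match SICER2 for the lists of replicate A and of endogenous SETD5, H3K4me1 was called with SICER2, and the caller of the replicate B lists is not given in the sources used here. Islands were called in windows of 200 bp with gaps of 400 bp (histone marks) or 600 bp (SETD5) and an E-value of 100. Each deposited line holds a position in mm9 and a score, which the authors' caller gave the island. Lists hold no read counts, so no counting interval can be given. The total reads that the study states per library entered no fit and served only to compare depth between libraries. Scores were used only to rank islands within a list, since wide or deeply sequenced islands score higher.

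Genes came from GENCODE vM1. A promoter ran from 1000 bases before to 100 after any annotated start. Covered length per window (log2 after adding 1000 bp) was fitted over the 17869 windows with islands in at least 2 of the 8 H3K27ac libraries with limma 3.58.1 in R 4.3.3 (lmFit, then eBayes with trend), as was the longest promoter island over 11616 genes. SETD5-V5 had its own fit over 13825 windows. All p-values are two-sided and adjusted by Benjamini-Hochberg over all features of a fit, with a threshold of 0.05. Values after ± are SE for fold changes and SD for levels. The fold scale understates changes of short lengths. H3K4me1 and endogenous SETD5 had 1 library per time and no test. Python 3.11.15, numpy 2.4.6 and pandas 2.3.3 did the rest. The fit was tested on simulated data.

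All 8 members were named, and of each related list up to 3 genes per contrast with the smallest adjusted p among those that passed, of which some are not reported here. Members and lists were chosen with earlier results of these data known. Alternatives covered the constant added, the filter, scaling, window size, score thresholds, equal numbers of islands, counts of islands, full island length, promoter overlap, a replicate block and each library left out.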

Additional observations from a re-analysis of the deposited data

How the results depend on the processing

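Island lists hold no reads, the read totals stated by the study were not used as a term, and with 2 libraries per group single libraries carried some calls. Of the 8 windows, 4 passed for time in control cells, against 2 with the replicate block, with equal numbers of islands per list or with 20 kb on each side, 1 with the number of islands (Jun, as lower), and 2 to 3 with any 1 library left out. With 100 kb on each side Fos passed in control cells (0.82, adjusted p = 0.017). Fosl1 and Fosb kept their calls in every leave-one-out fit and lost them together only with the number of islands (adjusted p = 0.532 and 0.113). With 100 kb on each side the change of Fosl2 turned to -0.061 (adjusted p = 0.768). In SETD5 cells 2 windows passed, against 1 with the number of islands (Jun, as lower) and 1 to 2 with a library left out. Fosl2 passed too in SETD5 cells with islands above the median score, scaled coverage or 20 kb on each side. With equal numbers of islands it passed there in place of Atf3. Between the vectors, where no window passed, 1 did at 0 h without the filter or with islands above the median score (Fosb) or with scaled coverage (Fosl2). At 48 h 1 did with scaled coverage or the number of islands (Fosl2) or with 100 kb (Atf3). For the interaction 1 did, Fosb, with 200 bp added, without the filter, with scaled coverage or with 100 kb. Promoter length gave 1 call for time in each vector, against 2 in SETD5 cells with islands above the median score and 1 to 2 in either vector with a library left out. For V5, where no window passed, 1 did (Atf3) with the replicate block or with 100 kb, and 0 to 7 with a library left out. No H3K4me1 window was higher by 1.5-fold, but 3 were with islands above the median score, 1 with equal numbers and 1 with 20 kb, and 1 was lower with 20 kb. Promoters with endogenous SETD5 at 6 h numbered 5, or 3 where at least 50% of the promoter had to be covered. The cause of these changes was not tested.

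The letters A and B were not shown to pair the libraries. Correlations of the A minus B deviations between H3K27ac groups ran from -0.0344 to 0.118, and that of the V5 groups was 0.0389. The replicate block moved the calls over all windows from 657 to 249 for the interaction and, for promoters, from 130 to 33 at 0 h, 398 to 251 at 48 h and 162 to 43 for the interaction.

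Calls over all windows also moved. For SETD5 against control cells at 0 h there were 415, against 230 without the filter, 907 above the median score, 972 scaled and 773 by number of islands, and at 48 h 2586, against 1455 without the filter and 3930 scaled. The interaction gave 657, against 368 without the filter, 1439 above the median score, 1509 scaled and 1455 by number. Time gave 6696 in control and 4763 in SETD5 cells, against 3395 and 2945 by number. V5 gave 2674, against 0 with 5000 bp added, 2 without the filter and 1488 with equal numbers. With any 1 library left out, calls ran from 23 to 307 at 0 h, 548 to 2373 at 48 h and 0 to 305 for the interaction. The share of higher calls with equal numbers was 40.7% in place of 59.0% at 0 h, 30.5% in place of 46.8% at 48 h and 72.8% in place of 99.4% for V5. Over counts and single genes together, 197 counts stayed within 1.5 times of those reported and 34 did not, and of single calls 149 stayed on their side of the threshold, 30 were lost, 6 were gained and 1 reversed.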
